A study of Mus musculus with 69 samples.

Results

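Primary microglia of male mice without Tlr7 were treated with myelin or with DMSO, a common solvent used here as the control, and 3 libraries of each treatment were sequenced. These 6 libraries were taken by their sample labels alone. They are 6 of the 24 libraries of the microglia experiment and 6 of the 69 libraries of the series, whose title concerns Tlr7 and sex differences in the loss of myelin with age and in Alzheimer's disease. Per the labels, all 6 came from male pups at postnatal days 1 to 3 with the genotype TLR7:-/-, and the groups differ in treatment only. The knockout is therefore shared by control and treated cells, and what myelin does with Tlr7 present was read from 3 DMSO and 3 myelin libraries of male wild-type microglia. The same 2 treatments of female Tlr7 knockout microglia, again 3 libraries each, gave the comparison between the sexes. The mouse strain, the deleted exons, and the source, amount and duration of the myelin treatment are not stated in the labels. No animal or culture is named for each library, so the spread behind each p-value is that between libraries of a group, and it may be technical. It was estimated jointly over all 24 libraries of the microglia experiment, which include female wild-type ones not described here. The labels name the RNA as nuclear, while the sequenced ends are those of polyadenylated transcripts.

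Microglia are the resident macrophages of the brain and clear the debris of myelin, the membrane that oligodendrocytes wrap around axons. Myelin is rich in cholesterol, which a macrophage cannot break down. After uptake and digestion in lysosomes, the cell can esterify cholesterol into lipid droplets or export it through ABC transporters under the control of the liver X receptors (LXR), while SREBP2, the factor that switches on the cell's own cholesterol synthesis, is held inactive when sterol is plentiful. TLR7 is an endosomal receptor for single-stranded RNA that signals through MyD88 to NF-kB and to IRF7, the factor that drives interferon genes.

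Total counts of the 6 libraries were 15277642 to 21275491. Tlr7 had 23, 39 and 36 counts with DMSO and 25, 21 and 36 counts with myelin, or 1.42, 2.32 and 2.30 CPM with DMSO and 1.71, 1.249 and 1.77 CPM with myelin. CPM are counts per 1e6 counts of the library after TMM scaling, a trimmed mean of log ratios between libraries. In the 6 male wild-type libraries Tlr7 stood at 174 to 193 CPM, so Tlr7 matched the genotype labels of the male libraries. The Y-linked Ddx3y was at 72.2 to 80.1 CPM in the male knockout libraries. The female-expressed Xist was at 0.929 to 1.96 CPM in them, above the 0 to 0.125 CPM of the male wild type. In the female knockout it was at 368.7 to 564 CPM. The origin of the trace in the male knockout was not tested. The 14 microglial markers summed to 8184 to 8496 CPM with DMSO and 7120 to 7159 CPM with myelin, and all 14 were detected in both groups. Of the other cell types looked for, fibroblasts, choroid plexus and blood cells had the lowest summed markers. Their summed markers were 7.96 to 11.8, 9.04 to 32.7 and 8.25 to 9.03 CPM with DMSO, and 6.19 to 8.27, 10.5 to 21.4 and 8.45 to 9.97 CPM with myelin. Of 13 blood markers, 8 were at 0 in all DMSO libraries and 9 in all myelin libraries, T-cell Cd3e among them.

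One control library stood apart before any comparison. In DMSO replicate 3, 41 of 10410 genes with a mean of at least 3 CPM were over 2-fold above both other DMSO libraries, and 26 of these 41 belonged to a list of interferon-stimulated genes. The same count was 0 to 5 in each of the other 5 libraries. Of 58 interferon genes at that level, 56 were highest in DMSO replicate 3, by a median of 0.99 on the log2 scale over the mean of the other 2, while the median over all genes was -0.005. Results on interferon and MHC genes are therefore given with and without this library. Since it was singled out by its high interferon values, leaving it out raises the fold changes of such genes by construction. Values and p-values without it describe how far the results rest on it, and are no separate test.

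Myelin changed 5530 of 14468 genes tested (38.2%) at an adjusted p under 0.05, the rule for a call throughout. It raised 2602 (18%) and lowered 2928 (20.2%). These shares are the background for the counts of list members called over all 6 libraries below. Which direction was more frequent depended on scaling and on single libraries. There were 2763 higher and 2770 lower genes with relative log expression scaling. Without DMSO replicate 3 there were 2681 and 2482, and without myelin replicate 2 there were 2215 and 2690. The 2 groups of libraries did not overlap in 6720 genes (46.4%). Most of these changes were small. Of the called genes, 4201 changed by less than 1.5-fold, while 233 rose and 362 fell by more than 2-fold. Only 51 and 62 passed 4-fold. The median log2 fold change over all genes was -0.013. CPM values measure shares of a library, and in a bulk culture fewer cells of a type and less RNA per cell cannot be told apart.

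**Figure D1:**
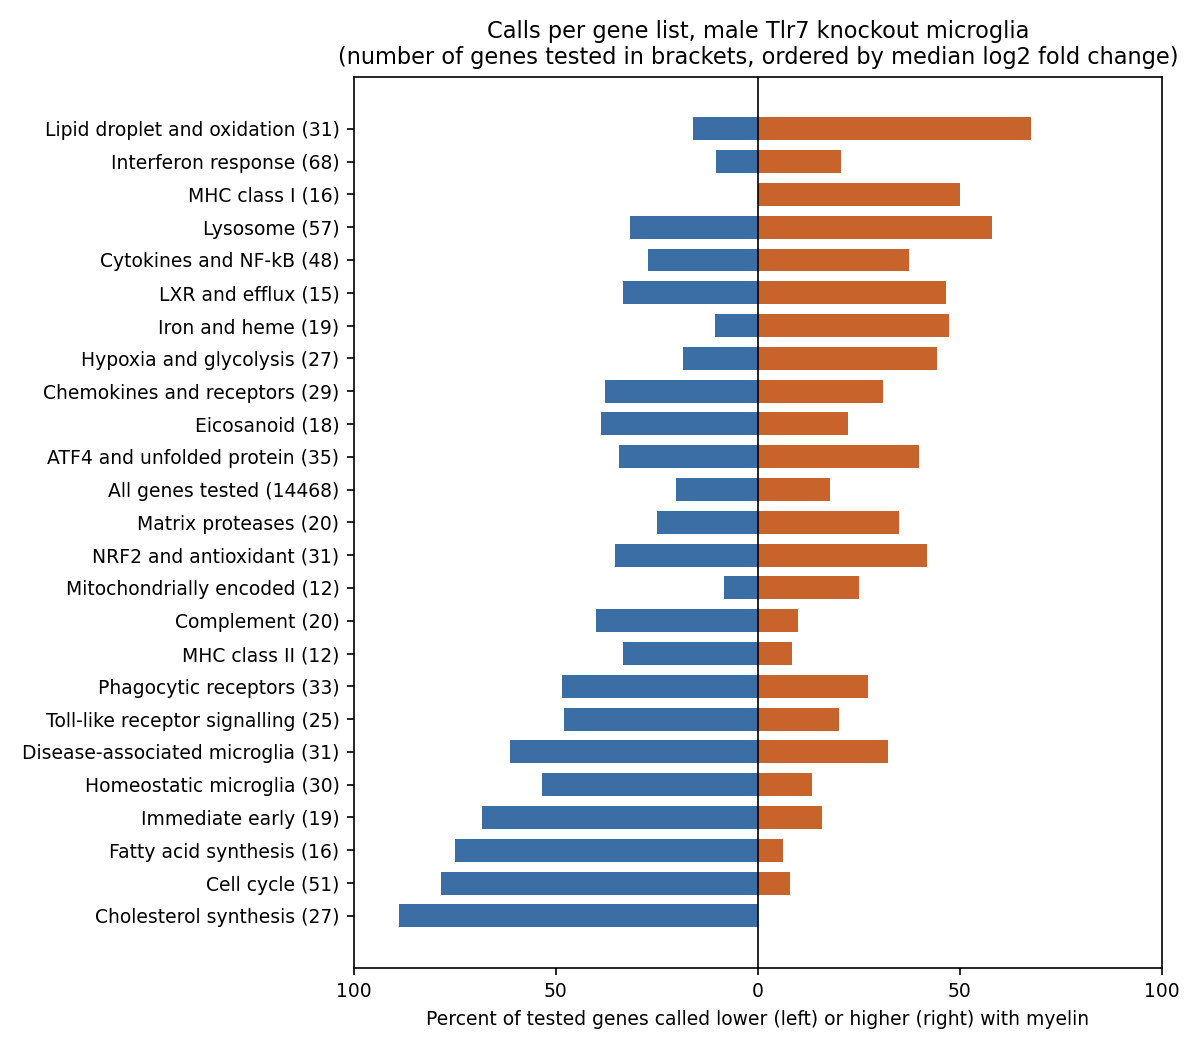
Share of the tested genes of each list that was called lower (blue, left) or higher (orange, right) with myelin at an adjusted p under 0.05, in percent, with lists ordered by their median log2 fold change. Cholesterol synthesis stands at the bottom with 24 of 27 genes lower and none higher, and lipid droplet genes at the top with 21 of 31 higher, against 18% higher and 20.2% lower over all 14468 genes.

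Cholesterol synthesis fell almost as a whole. Of 27 genes of the list that were tested, 24 fell and none rose, with a median log2 fold change of -2.18 against -0.013 for all genes. All but 1 of the 21 enzymes fell, beginning with Acat2 at the head of the pathway. The genes that were not called are Scap and Insig2, which code for proteins that escort or retain the SREBP factors in the endoplasmic reticulum, and Ggps1, whose enzyme draws an intermediate away into protein prenylation. Their log2 fold changes were -0.02, -0.012 and -0.026.

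Idi1, the isomerase that supplies the second isoprene building block, measured 34.7, 36.3 and 29.7 CPM with DMSO and 2.80, 2.32 and 1.97 CPM with myelin (log2 fold change -3.85 ± 0.12 SE, adjusted p = 7.46e-34). Cyp51, which removes a methyl group from lanosterol, measured 159, 168 and 165 CPM with DMSO and 13.1, 13.7 and 14.9 CPM with myelin (log2 fold change -3.55 ± 0.06 SE, adjusted p = 1.95e-46). In both genes every DMSO library was more than 10-fold above every myelin library. Sqle, the squalene epoxidase that commits the pathway to sterols, measured 113, 119.8 and 121 CPM with DMSO and 18.8, 18.9 and 20.3 CPM with myelin (log2 fold change -2.60 ± 0.055 SE, adjusted p = 7.05e-42).

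Of the 6 tested genes for the regulation or uptake of sterol 4 fell, all but Scap and Insig2. Srebf2, which codes for SREBP2 itself and is among its own targets, measured 281, 279.9 and 271 CPM with DMSO and 52.7, 63.9 and 65.8 CPM with myelin (log2 fold change -2.18 ± 0.048 SE, adjusted p = 3.87e-33). Insig1, the sterol-dependent brake on SREBP processing, measured 169, 172 and 153 CPM with DMSO and 21.3, 18.3 and 22.4 CPM with myelin (log2 fold change -2.99 ± 0.061 SE, adjusted p = 2.44e-35). Expression of both genes separated the groups with no overlap, as the rule that named them by fold change required. Stard4, a carrier that moves cholesterol between membranes, fell 9.41-fold, from 55.7, 58.7 and 56.0 CPM to 5.33, 6.30 and 6.34 CPM. The late enzymes Ebp and Dhcr7 moved least of those that fell, with log2 fold changes of -0.36 ± 0.067 SE and -0.44 ± 0.05 SE.

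Fatty acid synthesis fell with it but by less. Of 16 genes tested, 12 fell and 1 rose, with a median of -0.38. Fasn, the fatty acid synthase, measured 172, 154 and 157 CPM with DMSO and 102, 95.9 and 85.3 CPM with myelin (log2 fold change -0.77 ± 0.052 SE, adjusted p = 1.89e-14). Acly, which makes the acetyl-CoA for both pathways, fell from 377, 371 and 381 CPM to 242, 250.4 and 257 CPM. The largest falls were in Mlxipl, which codes for the glucose-sensing factor ChREBP, and in the desaturase gene Fads2. Mlxipl measured 8.30, 7.36 and 9.15 CPM with DMSO and 1.09, 1.55 and 1.03 CPM with myelin (log2 fold change -2.75 ± 0.17 SE, adjusted p = 3.24e-20), and Fads2 measured 10.3, 9.98 and 9.53 CPM with DMSO and 1.09, 1.31 and 2.51 CPM with myelin (log2 fold change -2.54 ± 0.27 SE, adjusted p = 1.46e-07). The gene that rose was the stearoyl-CoA desaturase Scd2, by 0.11 ± 0.038 SE on the log2 scale, a call lost without DMSO replicate 3 (adjusted p = 0.0655) or myelin replicate 2 (adjusted p = 0.0792). Srebf1, the partner factor for fatty acid genes, fell by a log2 fold change of -0.30 ± 0.051 SE.

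The promoter of Hmgcs1, the enzyme that forms HMG-CoA, is shown because it was the only one of 20 list genes with a promoter window that held the letters TCACNCCAC on either strand, the sterol element bound by SREBP factors, in the 250 bases before its start. The element is in capitals, and the stretch is chr13:119690184-119690252 on the plus strand, from RefSeq on GRCm38.p6.
Hmgcs1: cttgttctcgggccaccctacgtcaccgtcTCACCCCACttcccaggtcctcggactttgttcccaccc
The element begins 137 bases before the start. Over all tested genes with a window, 130 of 10345 (1.26%) held these letters. Sterol elements vary in sequence, and the fixed letters miss variants. The letters ATTGG are an inverted CCAAT box that NF-Y binds beside sterol elements. They were found for 18 of the 20 list genes (90%) and for 40.6% of all tested genes with a window. Hmgcs1 itself measured 126, 136 and 145 CPM with DMSO and 34.0, 34.7 and 39.8 CPM with myelin (log2 fold change -1.90 ± 0.052 SE, adjusted p = 2.29e-36).

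Several export genes under LXR moved the other way, and Abca1 was among the genes named for the largest fold gains. Abca1, the transporter that loads cholesterol onto lipoprotein particles, measured 166, 136 and 168 CPM with DMSO and 996, 942 and 825 CPM with myelin, a 5.88-fold gain (log2 fold change 2.56 ± 0.089 SE, adjusted p = 9.01e-14). Its partner Abcg1 measured 116, 127 and 118 CPM with DMSO and 425, 400.4 and 381 CPM with myelin (log2 fold change 1.74 ± 0.041 SE, adjusted p = 5.47e-34). Mylip, the ubiquitin ligase that limits the uptake of lipoprotein, measured 42.9, 48.3 and 48.9 CPM with DMSO and 116, 120.1 and 112 CPM with myelin (log2 fold change 1.31 ± 0.048 SE, adjusted p = 2.18e-30). All 3 are textbook LXR targets, and in each the lowest myelin library was above the highest DMSO library by more than 2-fold. Nr1h3, the gene of LXR alpha and its own target, measured 5.57, 4.16 and 4.09 CPM with DMSO and 13.5, 11.1 and 11.9 CPM with myelin (log2 fold change 1.40 ± 0.14 SE, adjusted p = 6.61e-13), while Nr1h2, the gene of LXR beta, fell slightly (log2 fold change -0.14 ± 0.043 SE, adjusted p = 0.0074), a call lost without DMSO replicate 1 (adjusted p = 0.276). The list as a whole was divided. Of 15 genes tested, 7 rose and 5 fell, with a median of 0.13. Among those that fell was Apoe, the lipoprotein that carries the exported cholesterol, at 15196, 14125 and 14010.0 CPM with DMSO and 12268, 12123 and 12388 CPM with myelin (log2 fold change -0.24 ± 0.025 SE, adjusted p = 6.24e-12). Scarb1, a receptor for HDL, fell from 98.1, 98.3 and 90.1 CPM to 52.1, 52.6 and 56.4 CPM.

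Lipid storage and use rose. Of 31 genes of the lipid droplet and fatty acid oxidation list, 21 rose and 5 fell, with a median of 0.30. Plin2, the coat protein of the lipid droplet, measured 1374, 1343 and 1386 CPM with DMSO and 4445, 4420.2 and 4191 CPM with myelin, a 3.18-fold gain (log2 fold change 1.67 ± 0.029 SE, adjusted p = 1e-44). Hilpda, which blocks the droplet lipase ATGL, measured 41.8, 39.0 and 38.5 CPM with DMSO and 114, 107 and 105 CPM with myelin (log2 fold change 1.45 ± 0.055 SE, adjusted p = 2.25e-28). Soat1, which esterifies cholesterol for storage, rose from 651, 643 and 646 CPM to 789, 801 and 802 CPM (log2 fold change 0.30 ± 0.027 SE, adjusted p = 5.25e-14). All 3 storage genes had groups that did not overlap, as was so for 46.4% of all genes tested. For Plin2 this was a condition of the rule that named it. Angptl4, a secreted inhibitor of lipoprotein lipase and a target of the PPAR factors, measured 8.48, 6.59 and 7.61 CPM with DMSO and 69.6, 64.4 and 58.8 CPM with myelin, a 8.48-fold gain (log2 fold change 3.08 ± 0.081 SE, adjusted p = 3.27e-37). Lpl, the lipase that it inhibits, fell by a log2 fold change of -0.20 ± 0.029 SE. Of 16 genes grouped in the list as fatty acid binding or oxidation, 12 rose and 3 fell. The scavenger receptor and fatty acid transporter Cd36 measured 1439, 1439.5 and 1464 CPM with DMSO and 2342, 2376 and 2449 CPM with myelin (log2 fold change 0.72 ± 0.034 SE, adjusted p = 8.55e-18), and Fabp4 and Fabp5, which bind fatty acids in the cytosol, had log2 fold changes of 0.93 ± 0.041 SE and 0.59 ± 0.03 SE. In the mitochondrial route, Cpt1a, which admits fatty acids to the mitochondrion, had a log2 fold change of 0.61 ± 0.034 SE and the dehydrogenase Acadl of 0.86 ± 0.041 SE. Ppard, which codes for a PPAR factor itself, fell by a log2 fold change of -0.24 ± 0.048 SE. Lipn, a lipase gene outside the list, rose from 2.04, 1.60 and 2.56 CPM to 11.3, 14.6 and 13.8 CPM (log2 fold change 2.68 ± 0.17 SE, adjusted p = 8.16e-20).

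**Figure D2:**
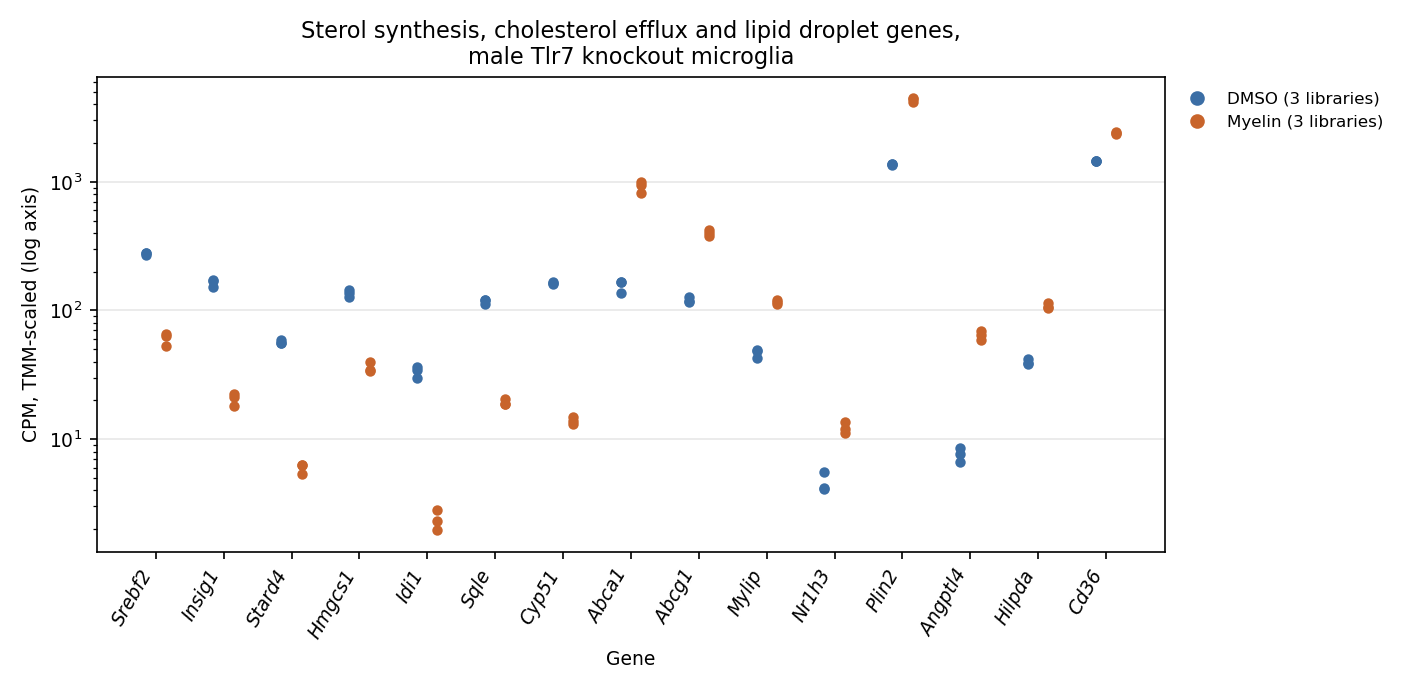
TMM-scaled CPM on a log axis for 15 genes of sterol synthesis, cholesterol export and lipid storage, with 3 DMSO libraries in blue and 3 myelin libraries in orange, each point 1 library. The 7 genes from Srebf2 to Cyp51 have all myelin points below all DMSO points, and the 8 genes from Abca1 to Cd36 have them above.

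Lysosomal genes rose more often than they fell. Of 57 tested, 33 rose and 18 fell, with a median of 0.14. Proteases rose in 9 of 12 and fell in 2. Hydrolases rose in 11 of 25 and fell in 10. Membrane and proton pump genes rose in 12 of 16 and fell in 3. Psap, the precursor of the saposins that present myelin sphingolipids to their hydrolases, was among the genes that gained most CPM, with 15353, 15384 and 15787 CPM with DMSO and 21799, 21485 and 21402 CPM with myelin (log2 fold change 0.48 ± 0.023 SE, adjusted p = 7.76e-25). The cathepsin genes Ctsb, Ctsd and Ctsl were also abundant. Ctsb measured 11857, 12155 and 12243 CPM with DMSO and 14282, 14442 and 14358 CPM with myelin (log2 fold change 0.25 ± 0.022 SE, adjusted p = 5.61e-14), Ctsd measured 7978, 8160.3 and 7987 CPM with DMSO and 9596, 9635 and 9476 CPM with myelin (log2 fold change 0.25 ± 0.023 SE, adjusted p = 1.74e-13), and Ctsl measured 3737, 3759.5 and 3691 CPM with DMSO and 5431, 5417 and 5431 CPM with myelin (log2 fold change 0.54 ± 0.027 SE, adjusted p = 2.62e-24). These shifts separated the groups fully, which the rule that named these genes by their gain in CPM required. Over all genes tested the groups did not overlap in 46.4%. Ctsk and Acp5, better known from osteoclasts, had the largest rises of the list. Ctsk measured 7.68, 10.3 and 11.8 CPM with DMSO and 27.4, 29.3 and 27.8 CPM with myelin (log2 fold change 1.503 ± 0.095 SE, adjusted p = 6.65e-20), and Acp5 measured 3.84, 4.10 and 4.67 CPM with DMSO and 10.2, 10.9 and 9.78 CPM with myelin (log2 fold change 1.29 ± 0.14 SE, adjusted p = 3.16e-11). Man2b1, a mannosidase, fell from 955, 938 and 922 CPM to 660.3, 648 and 647 CPM (log2 fold change -0.53 ± 0.035 SE, adjusted p = 6.01e-16). Tfeb and Mitf, which code for factors that drive lysosomal genes, fell, with log2 fold changes of -0.26 ± 0.058 SE and -0.37 ± 0.041 SE.

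The letters TCACGTGA are the E-box that TFEB and TFE3 bind in promoters of lysosomal genes. They were found for 5 of 47 lysosomal genes with a promoter window (10.6%), namely Atp6v1a, Ctsa, Ctsd, Gla and Mcoln1. Over all tested genes with a window, 177 of 10345 (1.71%) held these letters. All 5 lysosomal genes with the E-box rose with myelin. Of the 47 lysosomal genes with a window, 26 rose in all, against 18% of all genes tested. A link between the letters and the rise was not tested. The E-boxes of 3 of them are shown in capitals, in RefSeq sequence on GRCm38.p6, because they mark the member with the highest expression, a member with 2 copies and a calcium channel of the lysosome: Ctsd at chr7:142387889-142387956 on the minus strand, Gla at chrX:134601163-134601255 on the minus strand, and Mcoln1 at chr8:3500443-3500510 on the plus strand.
Ctsd: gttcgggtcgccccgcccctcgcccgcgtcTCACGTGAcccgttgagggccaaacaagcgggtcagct
Gla: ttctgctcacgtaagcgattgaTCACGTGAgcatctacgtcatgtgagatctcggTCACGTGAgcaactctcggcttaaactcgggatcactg
Mcoln1: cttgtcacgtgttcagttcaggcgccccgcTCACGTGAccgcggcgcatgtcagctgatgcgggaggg
Gla, the alpha-galactosidase, measured 226, 234 and 245 CPM with DMSO and 312, 321 and 316 CPM with myelin (log2 fold change 0.43 ± 0.034 SE, adjusted p = 1.01e-15). Mcoln1, the channel that releases lysosomal calcium, measured 108, 102 and 105 CPM with DMSO and 127, 117 and 121 CPM with myelin (log2 fold change 0.22 ± 0.041 SE, adjusted p = 2.01e-05). A match of letters is a description of the promoter and not a measured binding site.

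Receptors for uptake were divided. Of 33 phagocytic receptors and their ligands tested, 9 rose and 16 fell, with a median of -0.14. The scavenger receptors Olr1, Cd36 and Msr1 rose. Olr1, which binds oxidized lipoprotein, measured 5.51, 5.9984 and 4.93 CPM with DMSO and 23.9, 22.9 and 25.5 CPM with myelin, a 4.39-fold gain (log2 fold change 2.13 ± 0.11 SE, adjusted p = 6.15e-23). Cd300lf, a receptor for phospholipids, measured 141, 145 and 165 CPM with DMSO and 334, 314 and 288 CPM with myelin (log2 fold change 1.05 ± 0.058 SE, adjusted p = 3.46e-12). Both groups were separate in these genes, which for Olr1 was a condition of the rule that named it. The Fc receptors did not move as a family. Fcgr1, the activating high-affinity receptor, rose from 139, 149 and 212 CPM to 278, 267 and 248 CPM (log2 fold change 0.67 ± 0.13 SE, adjusted p = 0.000345), with an adjusted p of 0.0556 when only the 6 libraries compared were fitted, and Fcgr2b, the inhibitory receptor, fell from 446, 462 and 462 CPM to 215, 225 and 221 CPM (log2 fold change -1.05 ± 0.034 SE, adjusted p = 2.56e-33). Cd14, the co-receptor for lipopolysaccharide that also binds dying cells, fell 2.07-fold. It measured 291, 288 and 277 CPM with DMSO and 139, 134 and 139 CPM with myelin (log2 fold change -1.05 ± 0.051 SE, adjusted p = 2.49e-15). Axl and Scarb1 fell, with log2 fold changes of -0.69 ± 0.041 SE and -0.83 ± 0.047 SE, while Mertk, the sister receptor of Axl, rose by 0.17 ± 0.037 SE. Sirpa, which receives the "do not eat me" signal of CD47, measured 1986, 2064 and 1973 CPM with DMSO and 1445, 1459 and 1504 CPM with myelin (log2 fold change -0.45 ± 0.025 SE, adjusted p = 3.55e-22).

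Genes of resting microglia fell more often than they rose. Of 30 homeostatic genes tested, 16 fell and 4 rose, with a median of -0.22. Cx3cr1, the receptor for the neuronal chemokine fractalkine, had the largest fold fall of all genes named here. It measured 71.1, 83.1 and 68.6 CPM with DMSO and 1.09, 1.55 and 2.21 CPM with myelin, a 44.2-fold fall (log2 fold change -5.47 ± 0.16 SE, adjusted p = 1.08e-15). Its lowest DMSO library was more than 30-fold above its highest myelin library. Gpr34, a receptor for lysophosphatidylserine, measured 13.2, 14.1 and 12.6 CPM with DMSO and 4.17, 4.28 and 3.59 CPM with myelin (log2 fold change -1.74 ± 0.14 SE, adjusted p = 2.86e-15). The purinergic receptor genes P2ry12 and P2ry13 fell, with log2 fold changes of -0.94 ± 0.12 SE and -0.43 ± 0.055 SE. P2ry12 was already low in these cultures, at 12.6, 11.4 and 11.5 CPM with DMSO. Csf1r, the receptor for the survival factors of microglia, measured 1342, 1332 and 1352 CPM with DMSO and 832, 837 and 840.3 CPM with myelin (log2 fold change -0.68 ± 0.026 SE, adjusted p = 8.5e-30). Among the transcription factors, Maf and Mef2c fell, with log2 fold changes of -0.89 ± 0.037 SE and -0.74 ± 0.051 SE. Tmem119, a microglial marker, rose from a low 5.20, 6.35 and 4.80 CPM to 7.93, 6.66 and 8.01 CPM (log2 fold change 0.46 ± 0.15 SE, adjusted p = 0.0115), a call lost without DMSO replicate 3 (adjusted p = 0.0591) or myelin replicate 3 (adjusted p = 0.0664). Siglech was too low to be tested.

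The disease-associated program, known from microglia around plaques and damaged myelin, did not rise as a whole. Of 31 genes tested, 10 rose and 19 fell, with a median of -0.20. Those that rose include Gpnmb, a glycoprotein of lipid-laden macrophages, the lectin gene Lgals3 and the cathepsin inhibitor gene Cst7. Gpnmb was first among the genes named for their gain in CPM, with 18509, 18477 and 18975 CPM with DMSO and 25205, 24988 and 24490.0 CPM with myelin (log2 fold change 0.42 ± 0.027 SE, adjusted p = 1.18e-16). Lgals3 measured 4934, 4708 and 4907 CPM with DMSO and 6719, 6499.6 and 6497 CPM with myelin (log2 fold change 0.44 ± 0.026 SE, adjusted p = 8.62e-21), and Cst7 measured 31.6, 32.3 and 32.0 CPM with DMSO and 50.1, 51.6 and 52.5 CPM with myelin (log2 fold change 0.69 ± 0.063 SE, adjusted p = 1.13e-13). Of the 10 receptors and adaptors of the list 8 fell and 2 rose, and of the 21 secreted or enzymatic proteins 11 fell and 8 rose. Trem2, the lipid receptor on which the program depends, measured 695, 685 and 695 CPM with DMSO and 594, 601 and 616 CPM with myelin (log2 fold change -0.20 ± 0.026 SE, adjusted p = 9.75e-09), and its adaptor Tyrobp had a log2 fold change of -0.23 ± 0.032 SE. Of the secreted proteins, Spp1, which codes for osteopontin, measured 25430.0, 25564 and 26040.0 CPM with DMSO and 20982, 21707 and 22021 CPM with myelin (log2 fold change -0.25 ± 0.026 SE, adjusted p = 8.43e-11). Among the receptors Itgax fell by a log2 fold change of -0.57 ± 0.039 SE and Axl as given above. The secreted Dkk2 fell most of the list, from 17.2, 15.4 and 15.2 CPM to 4.78, 4.58 and 5.06 CPM (log2 fold change -1.72 ± 0.13 SE, adjusted p = 3.12e-16). Fn1, the matrix protein fibronectin and not on the list, fell from 2608, 2161 and 2439.5 CPM to 740.3, 719 and 710.5 CPM (log2 fold change -1.73 ± 0.085 SE, adjusted p = 1.24e-11). Lyz2, the macrophage lysozyme and a member of the list, lost the most CPM, with 25776, 26544 and 24822 CPM with DMSO and 19985, 20342 and 20557 CPM with myelin (log2 fold change -0.34 ± 0.034 SE, adjusted p = 1.05e-08).

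A small set of oligodendrocyte transcripts rose steeply. Mobp, a structural protein of myelin, had the largest fold gain of the genes named by size and measured 1.92, 2.08 and 2.24 CPM with DMSO and 123, 123 and 106 CPM with myelin, 56.3-fold higher (log2 fold change 5.82 ± 0.29 SE, adjusted p = 1.99e-11). Mbp, myelin basic protein, measured 125, 122 and 103 CPM with DMSO and 417, 412 and 365 CPM with myelin (log2 fold change 1.77 ± 0.15 SE, adjusted p = 3.15e-08). Plekhb1 and Bcas1, both abundant in cells of the oligodendrocyte lineage, measured 1.11, 1.84 and 1.15 CPM with DMSO and 33.8, 31.8 and 26.4 CPM with myelin and 4.64, 4.10 and 3.65 CPM with DMSO and 22.2, 22.4 and 19.7 CPM with myelin, with log2 fold changes of 4.46 ± 0.30 SE and 2.37 ± 0.18 SE. The kinesin gene Kif5a, known from axonal transport, rose from 3.72, 2.67 and 2.81 CPM to 16.1, 12.5 and 11.9 CPM (log2 fold change 2.12 ± 0.25 SE, adjusted p = 1.3e-06). The rest of the oligodendrocyte list did not follow. Of 20 markers tested, 2 rose, Mbp and Mobp, and 6 fell, with a median of -0.29. Mag, a myelin adhesion protein, measured 12.8, 13.6 and 14.3 CPM with DMSO and 8.95, 7.1965 and 10.2 CPM with myelin (log2 fold change -0.62 ± 0.12 SE, adjusted p = 1.71e-05). The summed oligodendrocyte markers were 713 to 770.1 CPM with DMSO and 1046 to 1122 CPM with myelin, with none of the 25 at 0 in a whole group. Over 10 precursor markers 2 rose and 4 fell, and their sum was 127 to 147 CPM with DMSO and 159.9 to 177 CPM with myelin. Of 9 neuronal markers tested, 3 rose and none fell, and their sum of 796 to 838 CPM with DMSO and 995 to 1020.0 CPM with myelin included genes that many cell types express. Of 11 astrocyte markers 2 rose and 2 fell, close to the 18% and 20.2% of all genes. The astrocyte sum was 49.8 to 72.5 CPM with DMSO and 37.6 to 41.1 CPM with myelin. Endothelial markers, with 1 of 6 higher and 1 lower, summed to 157 to 168 CPM with DMSO and 131 to 135 CPM with myelin, while Cldn5 was at 0 in both groups. Markers of border-associated macrophages rose in 1 and fell in 6 of 7, and their sum was 2708 to 2886 CPM with DMSO and 2419 to 2528 CPM with myelin. The part of these cell types in the other results was not tested.

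**Figure D3:**
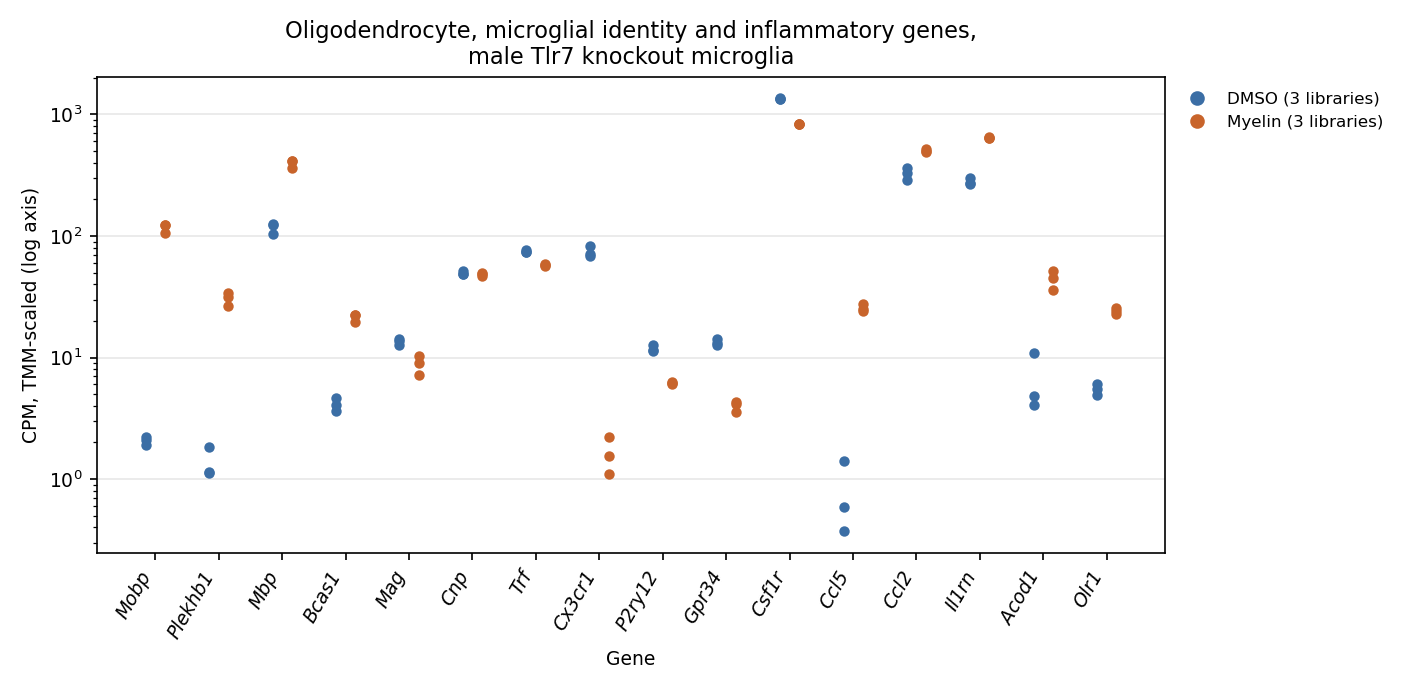
TMM-scaled CPM on a log axis for oligodendrocyte transcripts (Mobp to Trf), microglial genes (Cx3cr1 to Csf1r) and inflammatory genes (Ccl5 to Olr1), each point 1 library, DMSO in blue and myelin in orange. Mobp, Plekhb1, Mbp and Bcas1 have all myelin points above all DMSO points, Mag and Trf have them below, and Cx3cr1 drops furthest.

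Chemokine genes moved in both directions. Of 29 tested, 9 rose and 11 fell, with a median of 0.073. Ccl5, which attracts T cells and monocytes, was close to 0 with DMSO and measured 0.372, 0.594 and 1.41 CPM with DMSO and 27.7, 25.2 and 23.977 CPM with myelin (log2 fold change 5.02 ± 0.36 SE, adjusted p = 2.64e-09). Its DMSO values rest on few counts, which makes the fold imprecise, but every myelin library was above 20 CPM. The monocyte attractants Ccl2 and Ccl7 rose. Ccl2 measured 291, 331 and 364 CPM with DMSO and 499, 515 and 495 CPM with myelin (log2 fold change 0.61 ± 0.062 SE, adjusted p = 2.37e-07), and Ccl7 measured 26.1, 29.4 and 38.1 CPM with DMSO and 72.0, 78.7 and 69.5 CPM with myelin (log2 fold change 1.23 ± 0.12 SE, adjusted p = 1.42e-07). Cxcl3, a neutrophil attractant, rose from 5.82, 6.18 and 6.53 CPM to 19.7, 18.6 and 19.2 CPM (log2 fold change 1.63 ± 0.22 SE, adjusted p = 1.25e-05). Receptors fell in 6 of 9 and rose in 2. Ccr2, the receptor for Ccl2, fell from 4.03, 5.52 and 4.09 CPM to 2.05, 1.96 and 1.62 CPM (log2 fold change -1.29 ± 0.24 SE, adjusted p = 1.56e-05). In the same libraries, then, Ccl2 rose and its receptor fell.

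Of 48 cytokine and NF-kB genes tested, 18 rose and 13 fell, with a median of 0.14. Il1rn, the natural antagonist of interleukin 1, measured 274, 268 and 302 CPM with DMSO and 634, 645 and 646 CPM with myelin (log2 fold change 1.19 ± 0.04 SE, adjusted p = 6.27e-22), and Il1a, an agonist of the same receptor, measured 20.5, 25.5 and 24.4 CPM with DMSO and 60.8, 62.6 and 60.3 CPM with myelin (log2 fold change 1.384 ± 0.064 SE, adjusted p = 1.43e-25). Tnf rose from 20.3, 18.9 and 22.6 CPM to 27.4, 27.9 and 24.6 CPM (log2 fold change 0.36 ± 0.087 SE, adjusted p = 0.000588). Acod1, which makes the metabolite itaconate in activated macrophages, measured 4.83, 4.10 and 10.8 CPM with DMSO and 51.7, 45.1 and 35.8 CPM with myelin (log2 fold change 2.75 ± 0.31 SE, adjusted p = 1.14e-06). Its DMSO libraries differed among themselves, replicate 3 being the highest. All stayed below the myelin libraries, as the rule that named the gene required. Sod2, a mitochondrial superoxide dismutase induced by NF-kB, rose from 112, 112 and 117 CPM to 212, 199.9 and 202 CPM (log2 fold change 0.85 ± 0.046 SE, adjusted p = 2.62e-18). Genes of the NF-kB factors fell in 4 of 7 and rose in 1. Nfkb1 and Rela had log2 fold changes of -0.23 ± 0.044 SE and -0.30 ± 0.045 SE. Of the feedback inhibitors, Nfkbia and Tnfaip3 rose, with log2 fold changes of 0.58 ± 0.052 SE and 0.35 ± 0.039 SE, and Dusp1 fell by -0.61 ± 0.069 SE.

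Toll-like receptor genes and their partners fell in 12 of 25 and rose in 5, against 20.2% and 18% of all genes, with a median of -0.16. Tlr8, the neighbour and closest relative of Tlr7, measured 102, 102 and 101 CPM with DMSO and 69.9, 83.2 and 77.7 CPM with myelin (log2 fold change -0.40 ± 0.051 SE, adjusted p = 4.4e-09). Tlr9, the receptor for DNA, measured 5.82, 7.07 and 7.04 CPM with DMSO and 4.37, 3.21 and 5.11 CPM with myelin (log2 fold change -0.64 ± 0.17 SE, adjusted p = 0.00136), and Tlr13, the receptor for bacterial ribosomal RNA, had a log2 fold change of -0.13 ± 0.032 SE. The endosomal receptors share a chaperone, Unc93b1, which fell from 428, 415 and 410.1 CPM to 341, 322 and 335 CPM (log2 fold change -0.33 ± 0.031 SE, adjusted p = 2.3e-13). Irf5, a factor downstream of TLR7, fell from 205, 187 and 197 CPM to 138, 134 and 142 CPM (log2 fold change -0.51 ± 0.035 SE, adjusted p = 4.18e-18). Tlr7 itself stayed at the low level given above in both groups and was not called (log2 fold change -0.35 ± 0.18 SE).

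The interferon response depended on 1 control library. With all 6 libraries, 14 of 68 interferon genes rose and 7 fell, with a median of 0.28, against 18% and 20.2% of all genes. Without DMSO replicate 3, 45 of the 68 rose and 1 fell, with a median of 0.73, against 34.8% called and 18.1% higher among all 14816 genes tested in that fit. The upward direction of this shift was set by the choice of library, which was made on these same genes. It is therefore no separate support for a rise. Leaving out any of the other 5 libraries gave 9 to 12 higher. The gene that fell without this library is Irf1. It measured 23.8, 24.2 and 30.9 CPM with DMSO and 14.6, 14.9 and 16.7 CPM with myelin, with a log2 fold change of -0.76 ± 0.084 SE over all libraries and of -0.61 ± 0.086 SE, adjusted p = 3.69e-08 without DMSO replicate 3.

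Irf7 is the factor that amplifies interferon signalling. It measured 14.9, 16.9 and 60.1 CPM with DMSO and 52.2, 48.3 and 42.4 CPM with myelin, so that the third DMSO library exceeded all myelin libraries. Its log2 fold change was 0.64 ± 0.40 SE with an adjusted p of 0.233, and without DMSO replicate 3 it was 1.59 ± 0.33 SE, adjusted p = 0.000993. Ifit3, which binds foreign RNA with its relatives, measured 3.84, 3.68 and 19.3 CPM with DMSO and 21.7, 16.9 and 14.1 CPM with myelin (log2 fold change 0.98 ± 0.59 SE, adjusted p = 0.22), and 2.22 ± 0.67 SE, adjusted p = 0.0156 without that library. Its near-identical neighbour Ifit3b could share its reads. Isg15, a ubiquitin-like modifier, measured 4.71, 3.86 and 20.5 CPM with DMSO and 15.8, 17.3 and 14.5 CPM with myelin (log2 fold change 0.73 ± 0.48 SE, adjusted p = 0.266), and 1.91 ± 0.45 SE, adjusted p = 0.00298 without that library. In each of these 3 genes the other 2 DMSO libraries lay below all myelin libraries. Oas3, which senses double-stranded RNA, changed sign. It measured 6.38, 6.95 and 37.5 CPM with DMSO and 18.4, 16.4 and 14.1 CPM with myelin, with a log2 fold change of -0.048 ± 0.51 SE over all libraries and of 1.30 ± 0.41 SE, adjusted p = 0.0199 without replicate 3. Ifi27l2a was the opposite case. It measured 7.43, 9.74 and 28.5 CPM with DMSO and 7.86, 6.90 and 5.45 CPM with myelin and fell with all libraries (log2 fold change -1.19 ± 0.38 SE, adjusted p = 0.0197), and without replicate 3 the value was -0.35 ± 0.21 SE, adjusted p = 0.219. Its call was lost without myelin replicate 3 as well (adjusted p = 0.0812) and with only the 6 libraries compared in the fit (adjusted p = 0.25).

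A few interferon genes rose in either fit. Bst2, which tethers budding viruses to the cell, measured 117, 121 and 226 CPM with DMSO and 347, 329 and 299 CPM with myelin (log2 fold change 1.07 ± 0.20 SE, adjusted p = 0.00027). Zbp1, a sensor of Z-form nucleic acid, measured 8.86, 8.97 and 30.004 CPM with DMSO and 50.4, 45.1 and 37.9 CPM with myelin (log2 fold change 1.48 ± 0.36 SE, adjusted p = 0.00282). Even the high control library stayed below every myelin library in these genes. That was not typical of the list, since the groups did not overlap in 15 of its 68 genes, against 46.4% of all genes. With only the 6 libraries compared in the fit, the adjusted p was 0.0592 for Bst2 and 0.105 for Zbp1. Lgals9 and Lgals3bp, a galectin and a galectin ligand on the list, rose from 172, 190.4 and 244 CPM to 348, 341 and 314 CPM and from 278, 295 and 497 CPM to 684, 647 and 603 CPM, Lgals3bp with an adjusted p of 0.0732 in that smaller fit.

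The interferon-stimulated response element, bound by interferon-activated STAT and IRF complexes, was searched on both strands as 2 copies of GAAA in the same direction with any 2 bases between them. It was found for 25 of 54 interferon genes with a window of 250 bases (46.3%) and for 3.33% of all tested genes with a window. Isg15, Ifit3 and Bst2 are shown because their promoters hold the element and their values carry the split between libraries, with the elements in capitals, overlapping copies run together, in RefSeq sequence on GRCm38.p6: Isg15 at chr4:156200845-156200926 on the minus strand, Ifit3 at chr19:34583343-34583446 on the plus strand and Bst2 at chr8:71537557-71537632 on the minus strand.
Isg15: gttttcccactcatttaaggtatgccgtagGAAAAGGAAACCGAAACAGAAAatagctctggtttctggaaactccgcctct
Ifit3: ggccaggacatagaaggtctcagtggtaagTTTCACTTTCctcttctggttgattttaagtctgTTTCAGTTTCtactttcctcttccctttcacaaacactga
Bst2: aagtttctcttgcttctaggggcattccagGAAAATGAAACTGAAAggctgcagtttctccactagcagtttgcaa
With all libraries 5 of the 25 genes with the element rose and 2 fell, and 5 of the 29 without it rose and 3 fell. Without DMSO replicate 3, 15 of the 25 rose, with a median of 1.02, and 19 of the 29, with a median of 0.58. Over all genes tested 18% rose with all libraries and 18.1% in the fit without this library. It was left out for its high values of such genes, so the added rises follow from that choice. A link between the element and the response was not tested.

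Antigen presentation by MHC class I rose in 8 of 16 genes tested and fell in none, with a median of 0.24. Without DMSO replicate 3, 11 rose and none fell, with a median of 0.40, against 18.1% higher among all genes in that fit. Values without this library are no separate test, since it was left out for its high interferon values. B2m, the shared light chain, measured 1584, 1661 and 1943 CPM with DMSO and 2022, 2039 and 2062 CPM with myelin (log2 fold change 0.24 ± 0.05 SE, adjusted p = 0.000817), and 0.35 ± 0.028 SE, adjusted p = 1.92e-15 without that library, while the fit of only the 6 libraries gave an adjusted p of 0.102. Tapbp, which loads peptides, measured 216, 238 and 303 CPM with DMSO and 412, 394 and 375 CPM with myelin (log2 fold change 0.64 ± 0.10 SE, adjusted p = 7.6e-05). The peptide-loading chaperone Calr rose from 1208, 1252 and 1316 CPM to 2148, 2086 and 2119 CPM (log2 fold change 0.75 ± 0.029 SE, adjusted p = 3.09e-27). Of the nonclassical genes, H2-M2 measured 8.98, 14.0 and 15.7 CPM with DMSO and 83.1, 71.8 and 69.8 CPM with myelin (log2 fold change 2.54 ± 0.22 SE, adjusted p = 3.32e-08) and H2-Q7 measured 4.71, 3.56 and 6.14 CPM with DMSO and 20.7, 16.4 and 15.3 CPM with myelin (log2 fold change 1.86 ± 0.20 SE, adjusted p = 2.37e-07). Reads of H2-Q7 and H2-Q6 are uncertain, since these genes are near-identical copies. Class II genes did not rise with class I. Of 12 genes of that list tested, 4 fell and 1 rose, and Cd74, the invariant chain, fell from 42.2, 41.0 and 38.4 CPM to 17.4, 18.7 and 16.5 CPM (log2 fold change -1.21 ± 0.063 SE, adjusted p = 2.36e-23).

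**Figure D4:**
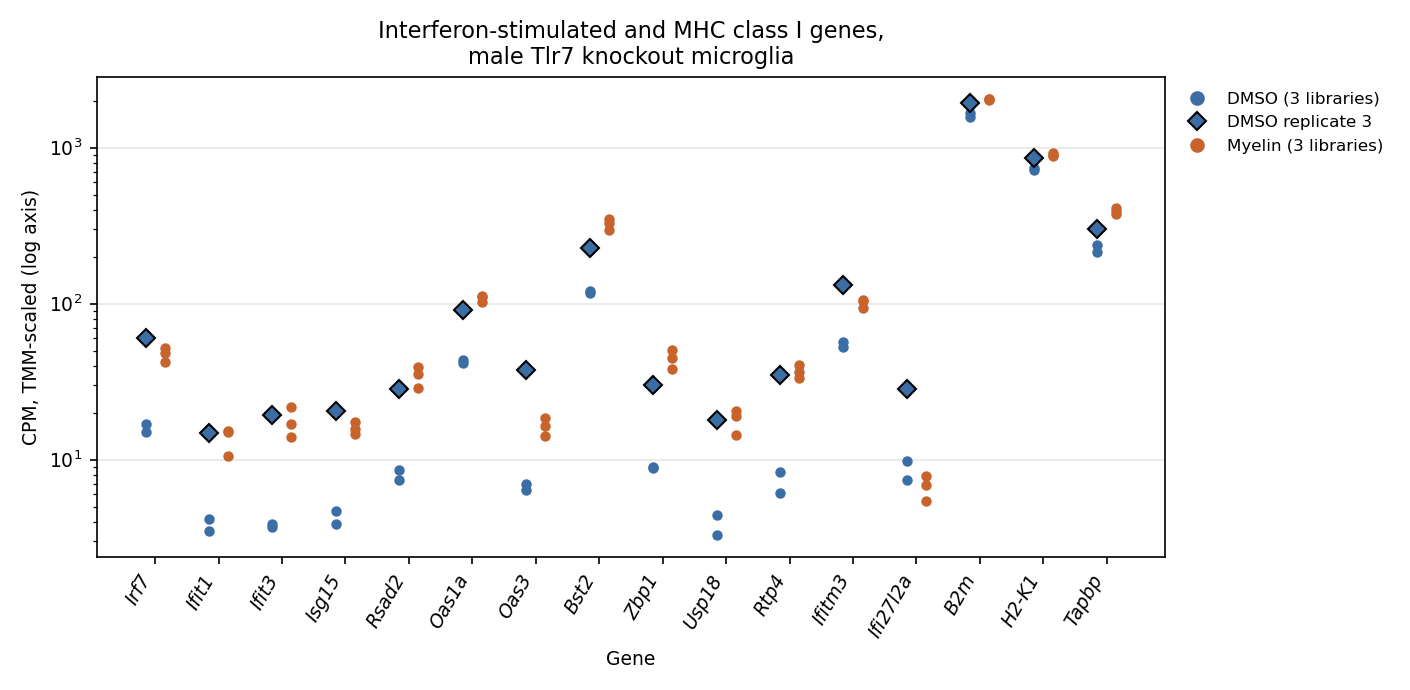
TMM-scaled CPM on a log axis for 13 interferon-stimulated genes and 3 MHC class I genes, each point 1 library, DMSO in blue with replicate 3 as a diamond, and myelin in orange. From Irf7 to Ifi27l2a the diamond lies above both other DMSO points, and in Irf7, Isg15, Oas3, Ifitm3 and Ifi27l2a it lies above all 3 myelin points.

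Cell division genes fell. Of 51 cell cycle genes tested, 40 fell and 4 rose, with a median of -0.53. Mitotic genes fell in 23 of 24, with a median of -1.03, and replication genes in 10 of 18, with 2 higher and a median of -0.32. Top2a, which untangles chromosomes, measured 27.4, 26.4 and 25.7 CPM with DMSO and 12.7, 12.7 and 11.4 CPM with myelin (log2 fold change -1.12 ± 0.086 SE, adjusted p = 1.59e-16), and the mitotic cyclin gene Ccnb2 measured 4.52, 4.45 and 3.97 CPM with DMSO and 0.342, 0.892 and 1.08 CPM with myelin (log2 fold change -2.42 ± 0.26 SE, adjusted p = 1.46e-11). Mki67, the proliferation marker, measured 28.3, 30.6 and 30.6 CPM with DMSO and 21.5, 22.5 and 20.4 CPM with myelin (log2 fold change -0.48 ± 0.10 SE, adjusted p = 0.000104). Values of these genes were low in both groups, and the groups did not overlap. Cdkn1a, the cell cycle inhibitor p21, rose from 335, 344 and 338 CPM to 419, 427 and 404 CPM (log2 fold change 0.30 ± 0.033 SE, adjusted p = 4.41e-11), while Cdkn1b, the inhibitor p27, fell (log2 fold change -0.73 ± 0.085 SE, adjusted p = 2.16e-10).

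Iron genes rose more often than they fell. Of 19 tested, 9 rose and 2 fell, with a median of 0.11. Slc40a1, ferroportin, the only known exporter of iron from cells, measured 237, 246 and 234 CPM with DMSO and 52.4, 53.5 and 59.0 CPM with myelin, a 4.33-fold fall (log2 fold change -2.12 ± 0.047 SE, adjusted p = 8.71e-35). Fth1, the ferritin heavy chain, measured 19632, 19477 and 19080.0 CPM with DMSO and 25092, 24381 and 24677 CPM with myelin (log2 fold change 0.35 ± 0.024 SE, adjusted p = 7.93e-18), and Ftl1, the light chain, measured 7045, 7116 and 6473 CPM with DMSO and 7993, 8208 and 8202 CPM with myelin (log2 fold change 0.24 ± 0.048 SE, adjusted p = 0.000515). Ferritin genes have many processed pseudogenes, so their counts are uncertain. Tfrc, the transferrin receptor, rose from 53.1, 60.8 and 63.0 CPM to 82.9, 80.7 and 84.2 CPM (log2 fold change 0.49 ± 0.051 SE, adjusted p = 9.81e-12). Heph, a ferroxidase that works beside ferroportin and was not on the list, rose from 2.60, 2.26 and 2.88 CPM to 13.1, 10.2 and 10.7 CPM (log2 fold change 2.13 ± 0.16 SE, adjusted p = 1.94e-16).

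Antioxidant genes were divided, 13 higher and 11 lower of 31 tested. Gclm, which limits glutathione synthesis with its partner Gclc, measured 331, 329 and 289 CPM with DMSO and 159, 149 and 165 CPM with myelin (log2 fold change -1.002 ± 0.059 SE, adjusted p = 2.23e-11), and catalase, Cat, measured 423, 405 and 371 CPM with DMSO and 214, 214 and 224 CPM with myelin (log2 fold change -0.88 ± 0.05 SE, adjusted p = 3.08e-13). Sod1 and Gpx1 rose, with log2 fold changes of 0.76 ± 0.047 SE and 0.52 ± 0.033 SE. Chaperones of the endoplasmic reticulum rose in 11 of 17 and fell in 4, with a median of 0.35. Pdia4, a protein disulfide isomerase, measured 288, 324 and 332 CPM with DMSO and 522, 538 and 506 CPM with myelin (log2 fold change 0.73 ± 0.035 SE, adjusted p = 2.22e-23), and Hspa5, the chaperone BiP, measured 669, 693 and 737 CPM with DMSO and 890.4, 894 and 894 CPM with myelin (log2 fold change 0.35 ± 0.029 SE, adjusted p = 4.42e-15). Genes of the ATF4 branch did not rise with them, 3 higher and 8 lower of 18. Of 18 eicosanoid genes 4 rose and 7 fell. Hpgd, which inactivates prostaglandins, measured 51.2, 50.7 and 43.2 CPM with DMSO and 13.3, 12.6 and 14.1 CPM with myelin (log2 fold change -1.85 ± 0.087 SE, adjusted p = 8.76e-22), and the 5-lipoxygenase gene Alox5 measured 75.1, 79.6 and 66.4 CPM with DMSO and 38.9, 38.2 and 35.0 CPM with myelin (log2 fold change -0.98 ± 0.074 SE, adjusted p = 7.59e-12). Immediate early genes fell in 13 of 19 and rose in 3. Complement genes fell in 8 of 20 and rose in 2. Matrix protease genes and inhibitors rose in 7 of 20 and fell in 5. Glycolysis and hypoxia genes rose in 12 of 27 and fell in 5, and Pfkfb3, which sets the rate of glycolysis, rose from 96.1, 97.6 and 99.1 CPM to 159.7, 156 and 144 CPM. Mitochondrially encoded genes rose in 3 of 12 and fell in 1. Over all genes tested 18% rose and 20.2% fell, and counts near these shares are no result about a list.

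Of the genes named by size alone and not yet described, Mreg, a regulator of melanosome transport, rose from 3.16, 3.56 and 3.33 CPM to 11.6, 14.6 and 12.3 CPM (log2 fold change 1.93 ± 0.14 SE, adjusted p = 6.37e-17), and Clmp, an adhesion molecule, rose from 6.32, 8.43 and 8.38 CPM to 31.6, 27.7 and 27.4 CPM (log2 fold change 1.90 ± 0.17 SE, adjusted p = 2.1e-08). Actb, the cytoskeletal actin, gained CPM, with 5097, 5468 and 5343 CPM with DMSO and 6606, 6801 and 6704 CPM with myelin (log2 fold change 0.34 ± 0.024 SE, adjusted p = 9.42e-18). Among the abundant genes that fell, the macrophage elastase gene Mmp12 measured 13631, 14045 and 13871 CPM with DMSO and 11802, 12214 and 12945 CPM with myelin (log2 fold change -0.17 ± 0.041 SE, adjusted p = 0.00247) and the urokinase gene Plau measured 1698, 1780.0 and 1690.3 CPM with DMSO and 1156, 1236 and 1277 CPM with myelin (log2 fold change -0.49 ± 0.043 SE, adjusted p = 5.93e-09). The translation factor gene Eef1a1 measured 5995, 6094 and 6070.3 CPM with DMSO and 5517, 5761 and 5714 CPM with myelin (log2 fold change -0.096 ± 0.026 SE, adjusted p = 0.00224), a call lost without DMSO replicate 2 (adjusted p = 0.054) or myelin replicate 1 (adjusted p = 0.113).

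The response without Tlr7 was then set against that of male wild-type microglia, in which myelin raised 2887 genes (20%) and lowered 2804 (19.4%). Of the 2602 genes that rose in the knockout, 1980 also rose in wild type, 76.1% of the knockout's list and 68.6% of the wild type's. Of the 2928 that fell, 2138 fell in both, 73% and 76.2% of the lists, and 22 genes were called in opposite directions. The difference between the 2 responses was called for 371 genes (2.56%), 114 higher (0.788%) and 257 lower (1.78%) in the knockout. In 203 of the 371 the response had the same direction and was smaller in the knockout, in 71 it was larger, and in 97 it had the opposite sign. The share of higher genes among those called was 30.7%, and it was 40.4% with relative log expression scaling, 42.6% with DESeq2 and 47.8% with no filter on low counts. Single libraries moved it too, to 52.5% without wild-type myelin replicate 1 and 51.1% without knockout myelin replicate 1, where 157 and 166 genes were higher, so that lower genes were then no longer the majority. The genes called higher numbered 75, 70 and 73 without wild-type DMSO replicate 1, DMSO replicate 2 or myelin replicate 3, and those called lower 142, 155 and 159 without wild-type myelin replicate 1, knockout DMSO replicate 3 or knockout myelin replicate 1. Summed markers of other cells differed between the genotypes as well. In the wild type those of choroid plexus were higher, at 165 to 296 CPM with DMSO and 194 to 267 CPM with myelin, as were those of fibroblasts, at 33.8 to 47.0 CPM and 24.3 to 49.7 CPM, of border-associated macrophages, at 3435 to 3666 CPM and 2721 to 2857 CPM, and of astrocytes, at 75.0 to 78.1 CPM and 57.1 to 67.4 CPM. Endothelial markers were lower in the wild type, at 96.3 to 105 CPM and 93.2 to 101 CPM. The ranges of oligodendrocyte markers, 710.5 to 756 CPM and 1013 to 1107 CPM, overlapped those of the knockout. The part of these cells in the differences was not tested.

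**Figure D5:**
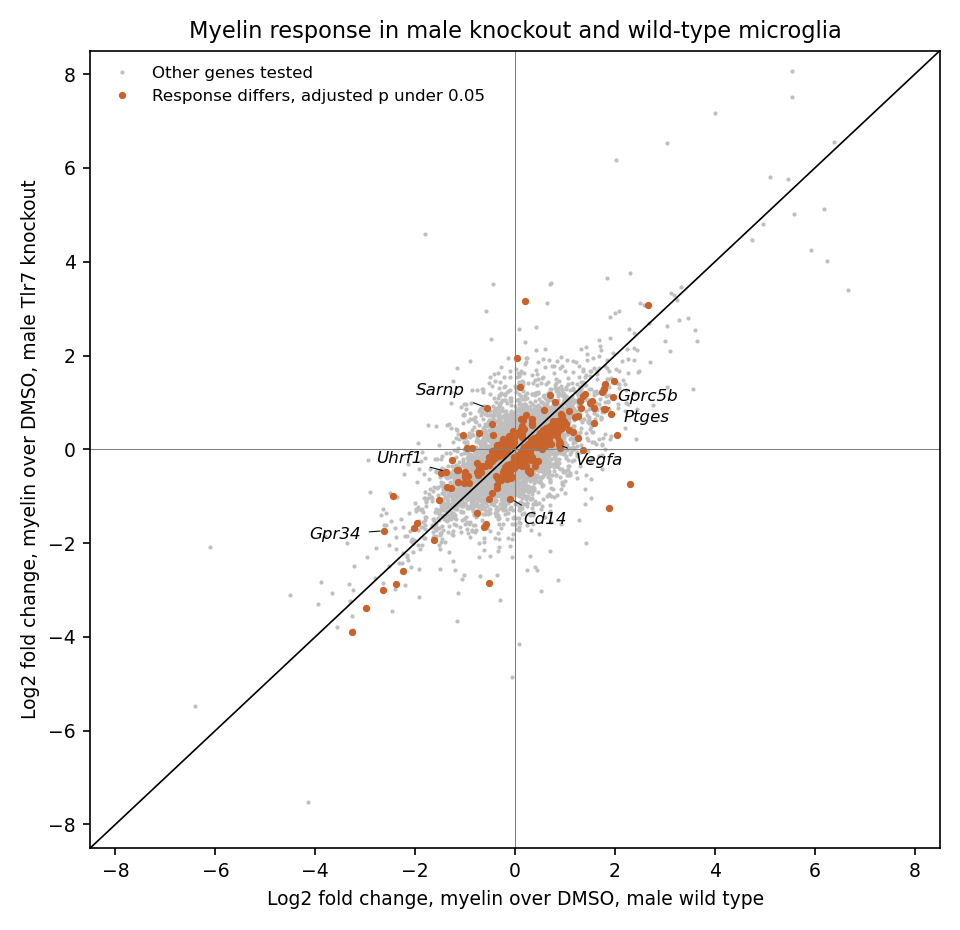
Log2 fold change of myelin over DMSO for all tested genes in male wild-type microglia (horizontal axis) and male Tlr7 knockout microglia (vertical axis), with the diagonal marking equal responses. The 371 genes whose responses differed at an adjusted p under 0.05 are orange, and Cd14, Ptges and Gprc5b lie below the diagonal while Sarnp, Uhrf1 and Gpr34 lie above it.

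Inflammatory genes were among those with a lower response in the knockout. Of 48 cytokine and NF-kB genes, 12 differed, all 12 lower in the knockout, and the median response was 0.14 against 0.30 in wild type. Ptges, the inducible synthase of prostaglandin E2, measured 5.33, 4.69 and 5.76 CPM with DMSO and 9.56, 8.45 and 8.75 CPM with myelin in the knockout and rose by 0.76, against 1.91 in wild type, a difference of -1.15 ± 0.24 SE, adjusted p = 0.00288. Il1a had log2 fold changes of 1.384 in the knockout and 1.79 in wild type, a difference of -0.41 ± 0.093 SE, adjusted p = 0.00535. Tnfaip3, an inhibitor of NF-kB also known as A20, had 0.35 and 0.74, a difference of -0.39 ± 0.055 SE, adjusted p = 2.3e-06. Of 11 feedback inhibitors 5 differed, all lower in the knockout. Nfkbie fell by -0.46 in the knockout and had 0.30 in wild type, a difference of -0.76 ± 0.15 SE, adjusted p = 0.00131, and Socs3, the brake on cytokine signalling, differed by -0.47 ± 0.10 SE, adjusted p = 0.00172. The call for Il1a was lost without knockout DMSO replicate 2 (adjusted p = 0.0701). Without DMSO replicate 3 of the knockout or myelin replicate 1 of the wild type, 8 of the 48 genes differed.

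Further genes with a lower response were outside the inflammatory list. Cd14, on the list of phagocytic receptors, fell in the knockout as given above and in wild type measured 256 ± 10.7 CPM with DMSO and 240.0 ± 12.1 CPM with myelin, a log2 fold change of -0.093, so the responses differed by -0.96 ± 0.071 SE, adjusted p = 1.3e-09. Gprc5b, an orphan receptor, measured 37.9, 37.4 and 34.7 CPM with DMSO and 70.5, 66.8 and 62.5 CPM with myelin in the knockout and 18.7 ± 0.425 CPM with DMSO and 65.1 ± 3.32 CPM with myelin in wild type, a difference of -0.94 ± 0.091 SE, adjusted p = 8.62e-11. Slamf7, a receptor of activated macrophages, had a log2 fold change of 0.86 against 1.78, a difference of -0.93 ± 0.21 SE, adjusted p = 0.00619. AA467197, a transcript of activated myeloid cells also known as Nmes1, differed by -0.85 ± 0.15 SE, adjusted p = 0.000198. Cyp1b1, a target of the aryl hydrocarbon receptor, measured 11.4, 9.09 and 7.61 CPM with DMSO and 10.5, 9.10 and 9.29 CPM with myelin in the knockout and rose by 0.89 in wild type, a difference of -0.86 ± 0.20 SE, adjusted p = 0.00895. Gsta3, a glutathione transferase, differed by -0.79 ± 0.21 SE, adjusted p = 0.0224, and H2-Q6, whose reads are uncertain, by -1.02 ± 0.28 SE, adjusted p = 0.0431. The calls for Gsta3 and H2-Q6 were lost when single libraries were left out, 8 and 7 of the 12 in turn, with adjusted p up to 0.109 and 0.168, and that for Slamf7 without wild-type myelin replicate 1 (adjusted p = 0.0606). Vegfa, the vascular growth factor, had 0.10 against 0.88, a difference of -0.78 ± 0.12 SE, adjusted p = 2.7e-05.

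Of 57 lysosomal genes 12 differed, all 12 lower in the knockout. That count was 5 without knockout DMSO replicate 3 or wild-type myelin replicate 1, and 7 without knockout DMSO replicate 2, knockout myelin replicate 1 or wild-type DMSO replicate 3. Of 31 disease-associated genes 10 differed, 9 of them lower and 1 higher in the knockout. Gpnmb rose by 0.42 in the knockout and 0.76 in wild type, a difference of -0.34 ± 0.038 SE, adjusted p = 4.72e-08. Cst7 differed by -0.52 ± 0.088 SE, adjusted p = 7.52e-05, and Lgals3 by -0.23 ± 0.037 SE, adjusted p = 1.83e-05. Clec7a, the receptor dectin-1, fell by -0.19 in the knockout and rose by 0.20 in wild type, a difference of -0.39 ± 0.038 SE, adjusted p = 1.16e-10. Mmp12 likewise fell in the knockout and had 0.34 in wild type, a difference of -0.51 ± 0.057 SE, adjusted p = 2.35e-05. Fcgr2b fell more in the knockout, by -1.05 against -0.53, a difference of -0.53 ± 0.047 SE, adjusted p = 1.66e-11. Falls of sterol genes were deeper in the knockout for 6 of 27, all of which fell in both genotypes, and for 3 of 27 without knockout myelin replicate 1. Sqle fell by -2.60 against -2.24, a difference of -0.36 ± 0.081 SE, adjusted p = 0.00358. Fdft1 and Insig1 differed by -0.48 and -0.35, and lost their calls when 3 and 7 of the 12 libraries were left out in turn, with adjusted p up to 0.142 and 0.187. The median of the whole sterol list was -2.18 in the knockout and -2.05 in wild type.

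Of 51 cell cycle genes 7 differed, all 7 higher in the knockout, and the list had a median of -0.53 against -0.99 in wild type. The count was 4 without knockout myelin replicate 2, 3 without wild-type myelin replicate 3 and 11 without wild-type myelin replicate 2. Uhrf1, which copies DNA methylation after replication, measured 12.4, 10.5 and 12.5 CPM with DMSO and 8.88, 7.67 and 8.89 CPM with myelin in the knockout and 19.957 ± 0.328 CPM with DMSO and 7.70 ± 1.34 CPM with myelin in wild type, a difference of 0.90 ± 0.18 SE, adjusted p = 0.000665. Mcm5, part of the replicative helicase, fell by -0.52 against -0.997, a difference of 0.48 ± 0.12 SE, adjusted p = 0.00993. Outside the list, Racgap1, needed for cytokinesis, fell by -0.45 against -1.16, a difference of 0.70 ± 0.14 SE, adjusted p = 0.00101, and Stmn1, a regulator of microtubules, by -0.81 against -1.36, a difference of 0.54 ± 0.13 SE, adjusted p = 0.00746. Psrc1, a spindle protein, rose by 0.65 in the knockout and had 0.12 in wild type, a difference of 0.53 ± 0.11 SE, adjusted p = 0.00145. Gpr34 fell by -1.74 against -2.62, a difference of 0.88 ± 0.22 SE, adjusted p = 0.0122, with a call lost without wild-type myelin replicate 1 (adjusted p = 0.0962) or knockout myelin replicate 2 (adjusted p = 0.05). Of 20 complement genes 7 differed, 4 higher and 3 lower in the knockout. Of the higher ones, C1qa, C1qb and C1qc, the chains of C1q, differed by 0.22, 0.21 and 0.27. Sarnp, an RNA export factor, rose in the knockout, at 5.57, 5.58 and 7.04 CPM with DMSO and 8.95, 10.6 and 13.7 CPM with myelin, and measured 8.51 ± 2.12 CPM with DMSO and 5.79 ± 0.231 CPM with myelin in wild type, a difference of 1.44 ± 0.32 SE, adjusted p = 0.0161. Slc36a2, an amino acid transporter, differed by 0.75 ± 0.14 SE, adjusted p = 0.00184 and Lrrc20 by 0.71 ± 0.17 SE, adjusted p = 0.00878, the latter with an adjusted p of 0.0648 without wild-type myelin replicate 1. Actb differed by 0.29 ± 0.034 SE, adjusted p = 1.82e-08.

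No gene of the LXR list was called as different by edgeR (3 at an unadjusted p under 0.05, and 0 by DESeq2). Abca1 had log2 fold changes of 2.56 and 2.28, a difference of 0.27 ± 0.12 SE, adjusted p = 0.337. Plin2 had 1.67 and 1.64, a difference of 0.025 ± 0.039 SE, adjusted p = 0.873. A difference that misses the threshold does not show equal responses. In wild type 49 of 68 interferon genes rose, with a median of 0.79, against 20% of all genes. Only 2 of the 68 were called as different with all libraries, Irf1 and Trim25, and edgeR called none without DMSO replicate 3 of the knockout (8 at an unadjusted p under 0.05, and 1 called by DESeq2 over all libraries), when the median difference was 0.054 rather than -0.394. With any 1 of the other 11 male libraries left out 0 to 2 were called. In the female knockout, which also lacks Tlr7, 53 of the 68 rose, with a median of 0.89, against 20.8% of all genes. Of these 68 genes 0 were called as different between the male and female knockout.

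Between the male and the female knockout the responses differed in 8 genes (0.0553%), 5 higher (0.0346%) and 3 lower (0.0207%) in males. Female knockout microglia raised 3006 genes (20.8%) and lowered 2953 (20.4%). Of the male list 2097 rose in both, 80.6% of the male and 69.8% of the female list, and 2274 fell in both, 77.7% and 77% of the lists, while 2 genes were called in opposite directions. Fcgr2b had log2 fold changes of -1.05 in the male and -0.80 in the female knockout, a difference of -0.26 ± 0.047 SE, adjusted p = 0.00941. Clec7a fell in males and had 0.022 in females, a difference of -0.21 ± 0.038 SE, adjusted p = 0.00941. Tet3, an enzyme that oxidizes methylated DNA, differed by -0.32 ± 0.067 SE, adjusted p = 0.0322. Neurl3, a ubiquitin ligase, fell less in males, by -0.68 against -1.23, a difference of 0.55 ± 0.11 SE, adjusted p = 0.0301. Rab32, a GTPase of lysosome-related organelles, had 0.10 against -0.18, a difference of 0.28 ± 0.053 SE, adjusted p = 0.0102, Scd2 0.11 against -0.14, a difference of 0.25 ± 0.054 SE, adjusted p = 0.0457, and Nampt, which makes a precursor of NAD, differed by 0.22 ± 0.048 SE, adjusted p = 0.0457. The eighth gene is an unnamed gene model. The count rested on single libraries. It was 14 without male DMSO replicate 1, 1 without male myelin replicate 2, 5 without male myelin replicate 3, and 20, 19 and 21 without female myelin replicate 1, 2 or 3. Without female DMSO replicate 1 edgeR called 0 genes, with 1052 at an unadjusted p under 0.05, and DESeq2 called 54 over all libraries. Of the 7 named genes each lost its call when some single library was left out, Tet3 with 9 of the 12 libraries and Rab32 with 2. Replicate 1 of the female knockout carried more RNA of the choroid plexus in both treatments, with Ttr, transthyretin, at 499 and 459 CPM against 41.7 to 183 CPM in the other 4 female knockout libraries. Without both of these libraries 6 genes were called. Same-numbered libraries of the female knockout deviated together, and with the replicate number as a block 39 genes were called, 17 higher and 22 lower in males.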

How the data were processed

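RNA was sequenced from its 3′ end, in libraries made with the QuantSeq 3′ forward kit per the labels' protocols. Since reads come from near the poly(A) tail, gene length does not set the counts, and transcripts that share a 3′ end cannot be told apart. For the 24 microglia libraries the authors deposited unscaled whole-number counts of 54532 genes, and all of its columns matched a sample label. DESeq2 1.38.3 and the builds mm10 and GRCm38 are listed per the submitters' processing notes. Which aligner and counting program were used, and whether counting used strand, is not given in the sources used here. Positions of genes in the table equal those of GENCODE M21 for 98.3% of 54409 shared identifiers.

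R 4.3.3 was used with edgeR 4.0.16 on all 24 libraries in 8 groups of 3. Genes were filtered with filterByExpr (14468 kept), scaled by TMM and fitted with robust quasi-likelihood dispersions. The common biological coefficient of variation was 0.0507. Contrasts were 2-sided, with Benjamini-Hochberg adjustment over all genes tested and a threshold of 0.05. Differences between responses were contrasts of differences in the same fit, and each standard error is the fold change divided by the square root of its F value. Total counts of 15277642 to 21275491 make 3 counts equal to 0.147 to 0.205 CPM. Molecular identifiers are not named in the labels, so such limits cover counting error only.

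Members are the samples named by the labels. The 34 gene lists were chosen with earlier results of these data known, as was the rule for named genes. That rule allows any list member, up to 15 genes that rose and 15 that fell, ranked by fold change with at least 10 CPM in the higher group and groups that do not overlap, up to 10 in each direction by CPM difference, and up to 8 in each direction in each difference of responses, plus 10 fixed genes. Gene models with placeholder names are left out, and a few genes are not reported here. Lists are described by counts and medians, with no set test. Promoters are RefSeq sequences on GRCm38.p6, searched over 250 bases before the start. Libraries of a group differed beyond counting noise, with chi-square per degree of freedom of 2.18 to 4.82 in the male knockout. Same-numbered male knockout libraries did not deviate together, with correlations of 0.031, 0.046 and -0.021, and neither did those of the male wild type, at -0.058, -0.032 and -0.025. Those of the female knockout did, at 0.442, 0.214 and 0.116. Alternatives were DESeq2 1.42.0, relative log expression scaling, no filter on low counts, only the groups compared, a replicate block, each library left out in turn and, added after seeing the data, no replicate 1 of the female knockout.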

Additional observations from a re-analysis of the deposited data

Results flagged for a closer look

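The myelin response of male Tlr7 knockout microglia differed from that of male wild-type microglia in 371 genes and from that of female knockout microglia in 8 genes, by a test of the difference itself. The values below are differences of log2 fold changes, knockout minus wild type, for the genes described in the report. Responses were lower in the knockout for Ptges (-1.15), H2-Q6 (-1.02), Cd14 (-0.96), Gprc5b (-0.94), Slamf7 (-0.93), Cyp1b1 (-0.86), AA467197 (-0.85), Gsta3 (-0.79), Vegfa (-0.78) and Nfkbie (-0.76). Smaller negative differences were measured for the inflammatory genes Socs3 (-0.47), Il1a (-0.41) and Tnfaip3 (-0.39). In macrophage genes the values were -0.53 for Fcgr2b, -0.52 for Cst7, -0.51 for Mmp12, -0.39 for Clec7a, -0.34 for Gpnmb and -0.23 for Lgals3. In sterol genes they were -0.48 for Fdft1, -0.36 for Sqle and -0.35 for Insig1.

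Responses were higher in the knockout for Sarnp (1.44), Uhrf1 (0.90), Gpr34 (0.88), Slc36a2 (0.75), Lrrc20 (0.71), Racgap1 (0.70), Stmn1 (0.54), Psrc1 (0.53), Mcm5 (0.48) and Actb (0.29), and for C1qa (0.22), C1qb (0.21) and C1qc (0.27). Male minus female knockout differences were 0.55 for Neurl3, 0.28 for Rab32, 0.25 for Scd2, 0.22 for Nampt, -0.32 for Tet3, -0.26 for Fcgr2b and -0.21 for Clec7a.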

How the results depend on the processing

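The count of genes called for myelin in the male knockout stayed within 1.5 times of 5530 under every alternative run, 5139 with DESeq2, 5533 with relative log expression scaling, 5271 with no filter, 5348 with only the groups compared and 4905 to 5163 with 1 library left out. With replicate number as a block it was 5616. The difference from male wild type, 371 genes, was 270.0 to 347 with 1 library left out, with 70.0 to 166 higher and 142 to 224 lower. Genes higher in that difference, 114, became 176 with DESeq2, 204 with no filter and 247 without replicate 1 of the female knockout, an alternative added after seeing the data that then called 1 gene lower in males than in females. With the replicate block 476 genes differed from wild type. The difference from the female knockout, 8 genes with 5 higher and 3 lower, was the least stable. It was 54, 34 and 20 with DESeq2, 88, 62 and 26 with no filter, 2, 2 and 0 with only the groups compared, and 39, 17 and 22 with the replicate block, in the order called, higher and lower, and 9 were higher with relative log expression scaling. With 1 library left out it was 0 to 21, with 0 to 17 higher and 0 to 10 lower. The causes were not tested. Genes near no change turned sign. Insig2 became 0 with DESeq2, 0.001 with relative log expression scaling and with no filter, and 0.005 without replicate 1 of the female knockout, and Oas3 became 0.092 with the block. With 1 library left out the log2 fold changes ran from -0.417 to 1.30 for Oas3, -0.075 to 0.216 for Cyp1b1, -0.103 to 0.07 for Ggps1, -0.073 to 0.056 for Insig2 and -0.065 to 0.018 for Scap. Of 201 gene results in the text 167 kept their direction and side of the threshold in every alternative that gave them an adjusted p. DESeq2 gave one for only part of the 201, with 183 unchanged and 1 of reversed sign, so the others lack that check. The replicate block ended the calls of Ifi27l2a for myelin (adjusted p = 0.054) and of H2-Q6 and Insig1 for the difference from wild type (adjusted p = 0.0522 and 0.0992), and no other call in the text. Low genes limit the data, since 3 counts equal 0.147 to 0.205 CPM.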
